A study of Mus musculus with 20 samples.

Results

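A set of 10 genes of the lactogen and serotonin systems of the islet was examined, chosen by gene symbol: the prolactin receptor Prlr, the growth hormone receptor Ghr, the feedback inhibitors Cish and Socs2, the serotonin synthesis genes Tph1, Tph2 and Ddc, the serotonin receptors Htr2b and Htr1d, and Men1, which encodes menin. Of the 10 genes, 9 had at least 1 probe among the 26159 named genes of the arrays, and Prlr had none and was not analysed here. For each gene the probe with the highest mean log2 intensity over the 20 arrays was used. After removal of the 30% of genes with the lowest means, 7 of the 9 genes remained among the 18311 genes tested, and Htr2b and Htr1d fell below that limit.

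All animals were male B6.V-Lep ob/ob mice, which lack functional leptin, with 5 mice in each of 4 groups. The diets are named in the labels only as HFD and CRD. Islets of the first group were taken after 39 weeks of HFD and a further 2 days of CRD, those of the second after 39 weeks of HFD alone, of the third after 18 weeks of HFD and a further 2 days of CRD, and of the fourth after 18 weeks of HFD alone. The labels give the same 39 or 18 weeks both as the age of the mice and as the length of HFD feeding, so age and feeding time cannot be told apart, and "between the ages" below stands for both. Leptin deficiency and a long HFD feeding were shared by all 4 groups. Islets were released with collagenase and picked by hand, and each array holds the RNA of a bulk islet sample in 1 colour, as a linear intensity per probe.

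Prolactin, placental lactogen and growth hormone act on beta cells through related cytokine receptors that switch on the kinase JAK2 and the transcription factors STAT5A and STAT5B. STAT5 then induces CISH and SOCS2, which damp the same receptors, and in the mouse islet in pregnancy lactogens also strongly induce Tph1, so that beta cells make serotonin. Serotonin acts back on the islet through receptors that include HTR2B and HTR1D, and menin, part of a histone methyltransferase complex, restrains beta cell division.

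Cish is a textbook STAT5 target in the mouse, and its promoter is shown because it alone, among the 8 genes with both a probe and a promoter window, held the STAT5 core motif. RefSeq promoter windows (GRCm38.p6, 250 bases before to 50 bases after a gene's start) were matched for 8 of the 9 genes with a probe, 14 windows in all. The motif TTCNNNGAA, which reads the same on both strands, was found in 1 of the 14 windows, against 8.3% of all 32851 windows. Of the 3 windows of Prlr, which has no probe, 1 also held a copy. The Cish window on chr9:107296409-107296708, plus strand, is printed 5′ to 3′ with its 2 motif copies in capitals:

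Cish: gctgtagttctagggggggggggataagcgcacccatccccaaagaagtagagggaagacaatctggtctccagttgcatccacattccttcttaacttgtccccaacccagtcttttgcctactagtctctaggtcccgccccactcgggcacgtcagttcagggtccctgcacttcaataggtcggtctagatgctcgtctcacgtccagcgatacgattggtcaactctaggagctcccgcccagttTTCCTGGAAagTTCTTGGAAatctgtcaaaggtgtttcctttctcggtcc

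The first copy, TTCCTGGAA, begins at the annotated first base of the gene, and the second, TTCTTGGAA, begins 11 bases further on. They do not overlap each other. Windows with 2 or more copies made up 0.457% of all windows. A match describes the letters only.

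The arrays were divided into 3 sets, which no label records. The sets were cut from a clustering of array correlations across 1320 chemosensory receptor genes, and their number was fixed at 3. On those same genes, arrays correlated at 0.925 to 0.979 within a set and at 0.848 to 0.917 between sets. Higher values within a set follow in part from the clustering itself. Set A held 4 arrays of the 39-week CRD group, 3 of the 39-week HFD group, 1 of the 18-week CRD group and 4 of the 18-week HFD group. Set B held 1 array of the 39-week HFD group, 4 of the 18-week CRD group and 1 of the 18-week HFD group, and set C held 1 array of each 39-week group. Each comparison was therefore also fitted with a term for the set, called the blocked fit. The insulin gene Ins2 was at the highest value of the table on 17 of the 20 arrays, and Gcg, Sst and Ppy, which encode glucagon, somatostatin and pancreatic polypeptide, all had log2 intensities of 12.85 or more on every array, so the label of pancreatic islet was borne out by its hormones.

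None of the 7 tested genes passed an adjusted p of 0.05 in any of the 5 comparisons by limma. In CRD against HFD at 39 weeks the count was 0 of 7, where 8.34% of all 18311 genes were called, and 1 of the 7 had an unadjusted p under 0.05 (20.5% of all genes). In CRD against HFD at 18 weeks it was again 0 of 7, against 24.9% of all genes, with 1 of 7 under the unadjusted limit (40.4% of all genes). Between 39 and 18 weeks the counts were 0 of 7 on HFD, against 0.0928% of all genes, and 0 of 7 after CRD, against 0.0273% of all genes, with 2 of 7 under the unadjusted limit in each (6.6% of all genes on HFD and 35.6% after CRD). For the difference between the CRD effects at the 2 ages the count was 0 of 7, as it was for all genes (0%), and 0 of 7 were under the unadjusted limit (22.1% of all genes). In the blocked fit the count stayed at 0 of 7 in all 5 comparisons, while 15.3% of all genes were called in the CRD comparison at 39 weeks, 12.9% in that at 18 weeks, 0.912% between the ages on HFD, and 0% in the other comparisons. The median log2 change of the 7 genes was 0.35 at 39 weeks and -0.14 at 18 weeks for CRD against HFD, beside 0.02 and 0.04 for all genes. For 0 of 7 genes did the arrays of the groups compared lie fully apart in CRD against HFD at 39 weeks (12.7% of all genes), at 18 weeks (9.6%) or between the ages after CRD (4.57%), and on HFD 1 of 7 did so between the ages (1.05%).

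**Figure D1:**
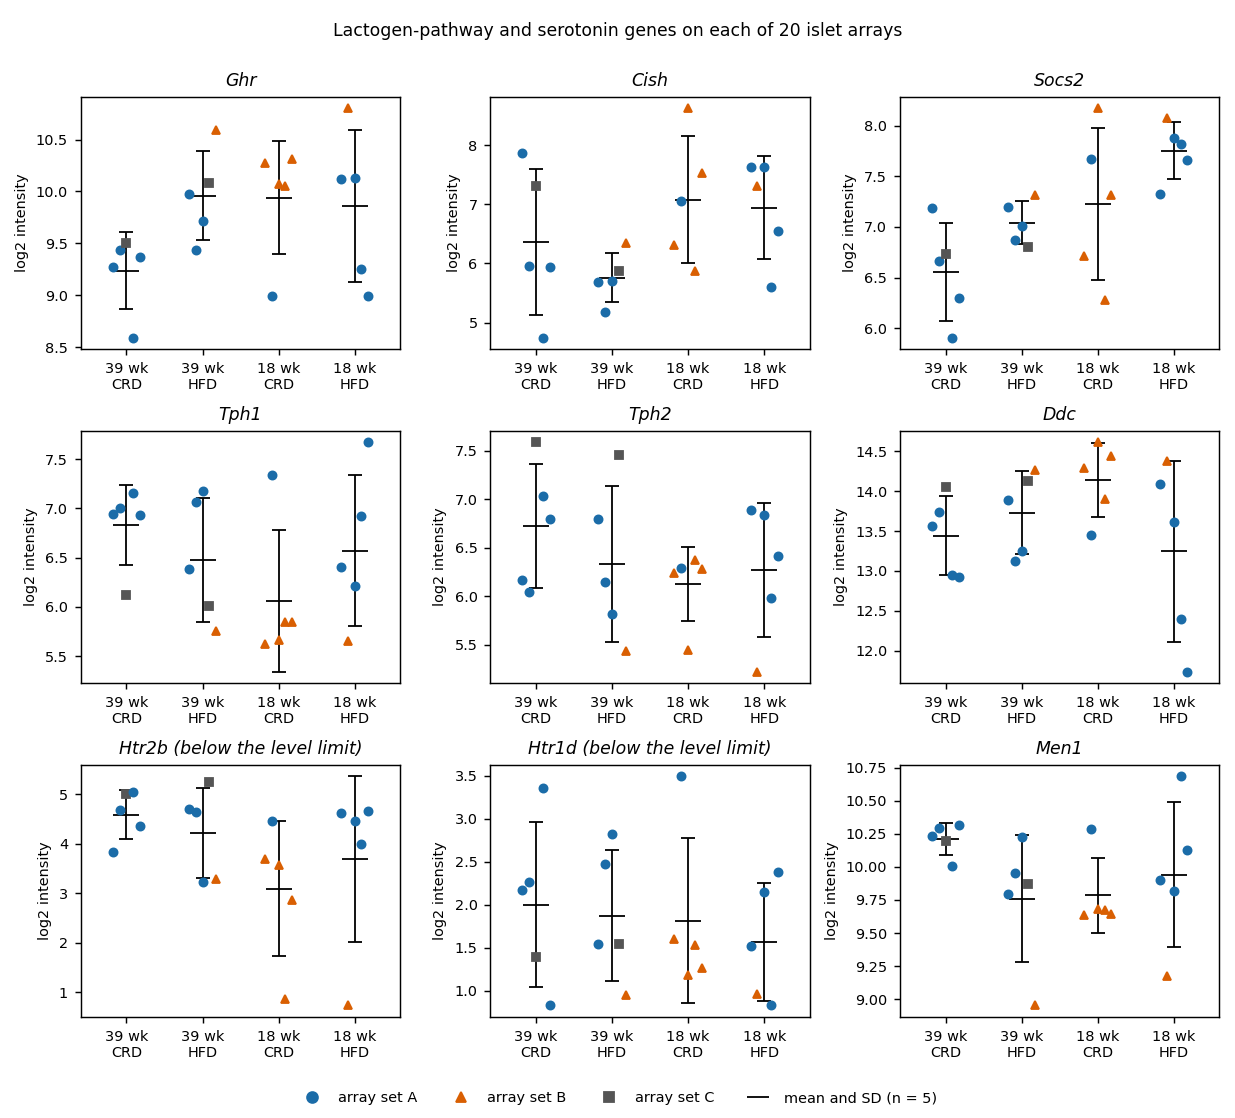
Log2 intensity of the 9 genes with a probe on each of the 20 arrays, by group, with the mean and SD (n = 5 mice) in black and the array set by colour and shape. The groups overlap in most panels, and for Tph1 and Men1 the set B arrays lie low in every group that holds one.

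Ghr, the receptor through which growth hormone switches on JAK2, lies on chromosome 15 from 3317755 to 3583352 (GRCm38.p6). Its brighter probe gave log2 intensities of 9.27, 9.44, 9.51, 8.59 and 9.36 in the 39-week CRD group, against 9.98, 9.44, 9.71, 10.09 and 10.59 in the 39-week HFD group. Of the 5 CRD values 4 were at or under 9.44, the lowest HFD value, so the groups only just overlapped. The log2 change was -0.73 ± 0.32 (SE, n = 5 per group, adjusted p = 0.195), and -0.51 in the blocked fit (adjusted p = 0.127). In bulk islets, fewer cells of a type and less RNA per cell cannot be told apart.

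At 18 weeks the same probe read 10.27, 8.99, 10.07, 10.05 and 10.31 in the CRD group, against 10.12, 10.80, 10.12, 9.26 and 8.99 in the HFD group. The ranges overlapped almost wholly, and the change was 0.08 ± 0.32 (SE, adjusted p = 0.86). In the blocked fit the sign turned to -0.57 (adjusted p = 0.161). At 39 weeks the CRD minus HFD difference was -0.54 within set A (4 CRD and 3 HFD arrays) and -0.58 within set C (1 and 1). At 18 weeks it was -0.63 within set A (1 and 4) and -0.62 within set B (4 and 1). The brighter probe was thus lower after CRD inside every set that held both diets at an age, but most of these differences rest on 1 array of a diet. No comparison passed the test.

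A second Ghr probe, assigned to another RefSeq transcript record of the gene, gave a different picture. The mouse gene is known to yield, by alternative splicing, both the membrane receptor and a soluble growth hormone-binding protein, and which of these mRNAs each probe reads was not determined here. The second probe gave 9.29, 9.43, 9.66, 9.11 and 9.19 in the 39-week CRD group, against 9.13, 8.40, 8.59, 9.23 and 9.24 in the 39-week HFD group. It gave 9.84, 9.03, 9.89, 9.55 and 9.80 in the 18-week CRD group, against 9.05, 9.27, 8.65, 8.01 and 7.76 in the 18-week HFD group. After CRD the values were mostly the higher ones, with some overlap at each age.

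Fitted among all 20505 probes above the level limit, the second probe rose 2.1-fold after CRD at 18 weeks (log2 change 1.07 ± 0.27, SE, adjusted p = 0.00716), where 25.1% of probes were called. The call held in 20 of 20 fits that left out 1 array but was lost in the blocked fit (0.63, adjusted p = 0.0846), which called 13.8% of probes. At 39 weeks the change was 0.42 ± 0.27 (SE, adjusted p = 0.417), where 8.47% of probes were called, and 0.56 in the blocked fit (adjusted p = 0.0724, 15.3% of probes called).

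The log2 ratio of the second to the brighter Ghr probe within each array separated the diets at both ages. It was 0.02, -0.01, 0.16, 0.52 and -0.18 in the 39-week CRD group, against -0.85, -1.04, -1.12, -0.86 and -1.34 in the 39-week HFD group. In the 18-week groups it was -0.44, 0.03, -0.19, -0.50 and -0.51 after CRD, against -1.07, -1.53, -1.47, -1.25 and -1.23 on HFD. Every CRD array lay above every HFD array, whatever its age or array set.

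The CRD groups averaged 0.10 ± 0.26 at 39 weeks and -0.32 ± 0.24 at 18 weeks, against -1.04 ± 0.21 and -1.31 ± 0.19 in the HFD groups (SD, n = 5 each). The same ratio was formed for each of the 1961 genes with at least 2 probes above the level limit, and limma was run over all of them. For Ghr the ratio was higher after CRD by 1.14 ± 0.16 at 39 weeks (SE, adjusted p = 0.000791), where 1.99% of the 1961 genes were called, and by 0.99 ± 0.16 at 18 weeks (SE, adjusted p = 0.00151), where 21.4% were called. In this fit Ghr ranked 3 of 1961 by p at 39 weeks and 10 of 1961 at 18 weeks, and it was 1 of 27 genes called at both ages.

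The ratio passed the threshold in 20 of 20 fits leaving out 1 array at each age, and in the blocked fit. There the change was 1.07 at 39 weeks (adjusted p = 0.000214, 4.39% of the 1961 genes called) and 1.20 at 18 weeks (adjusted p = 0.000301, 3.26% called). In set A alone the change was 1.09 at 39 weeks (adjusted p = 0.0556) and 1.29 at 18 weeks (adjusted p = 0.303), where that age has 1 CRD array. Groups without overlap in this ratio made up 5.71% of the 1961 genes at 39 weeks and 6.12% at 18 weeks. Ghr was 1 of 2 genes of the set with a second probe, and the ratio was singled out after its values were seen. It shows that the signals of the 2 probes changed unequally, not which of them changed. Between the ages the ratio did not pass the test, with 0.27 ± 0.16 on HFD (SE, adjusted p = 0.371), where 9.48% of the 1961 genes were called, and 0.42 ± 0.16 after CRD (SE, adjusted p = 0.159), where 0% were.

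**Figure D2:**
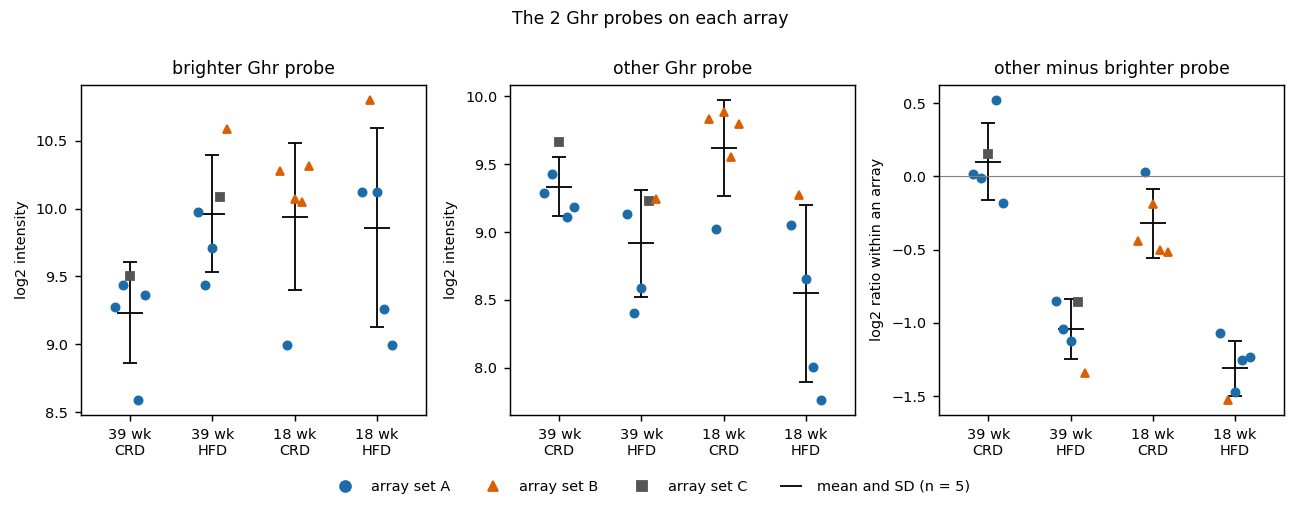
Log2 intensity of the brighter and of the other Ghr probe, and the log2 ratio of the other to the brighter probe within each array, by group, with the mean and SD (n = 5). The ratio lies between -0.51 and 0.52 on the 10 CRD arrays and between -1.53 and -0.85 on the 10 HFD arrays.

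Cish, an SH2-domain protein that binds activated cytokine receptors and limits STAT5 signalling, lies on chromosome 9 from 107296659 to 107302784. Its log2 intensities were 7.86, 5.95, 7.31, 4.74 and 5.94 in the 39-week CRD group, against 5.68, 5.19, 5.71, 5.88 and 6.34 in the 39-week HFD group. They were 6.31, 7.06, 8.62, 5.87 and 7.53 in the 18-week CRD group, against 7.63, 7.32, 7.63, 5.60 and 6.55 in the 18-week HFD group. The CRD groups spread widely and overlapped the HFD groups at both ages.

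The change of Cish for CRD against HFD was 0.60 ± 0.54 at 39 weeks (SE, adjusted p = 0.609) and 0.13 ± 0.54 at 18 weeks (SE, adjusted p = 0.863, and -0.14 in the blocked fit, adjusted p = 0.939). At these errors a change of less than about 1 log2 unit could not have been resolved: the 95% interval at 39 weeks ran from -0.53 to 1.74. Between ages on HFD the mean was 5.76 ± 0.41 at 39 weeks, against 6.94 ± 0.87 at 18 weeks (SD, n = 5 each), a change of -1.18 ± 0.54 (SE, unadjusted p = 0.0413, adjusted p = 0.735). Within set A the same difference was -1.32.

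Socs2, the other STAT5-induced feedback inhibitor here and a brake on growth hormone signalling, lies on chromosome 10 from 95383903 to 95417321. It gave 7.19, 6.66, 6.73, 5.90 and 6.30 in the 39-week CRD group, against 7.20, 6.87, 7.01, 6.81 and 7.31 in the 39-week HFD group. It gave 6.71, 7.67, 8.17, 6.27 and 7.32 in the 18-week CRD group, against 7.33, 8.08, 7.88, 7.82 and 7.66 in the 18-week HFD group. In each pair the CRD mean was the lower, with overlap.

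Socs2 differed for CRD against HFD by -0.48 ± 0.29 at 39 weeks (SE, adjusted p = 0.385) and by -0.53 ± 0.29 at 18 weeks (SE, adjusted p = 0.179), and by -0.47 and -0.57 in the blocked fit. The sets were uneven: at 39 weeks set A gave -0.51 and set C -0.07, and at 18 weeks set A, with 1 CRD array, gave -0.0041 and set B, with 1 HFD array, -0.96. Between ages on HFD every 39-week array lay below every 18-week array, by as little as 7.31 against 7.33, which made Socs2 the 1 gene of 7 without overlap in that comparison, against 1.05% of all genes. The age change was -0.71 ± 0.29 on HFD (SE, unadjusted p = 0.0237, adjusted p = 0.594) and -0.67 ± 0.29 after CRD (SE, unadjusted p = 0.0321, adjusted p = 0.121). A second Socs2 probe, whose mean log2 intensity of 4.81 was just under the limit of 4.828, followed the first (Pearson r = 0.933 over 20 arrays, with no p as the arrays share sets), whereas the 2 Ghr probes gave r = 0.440.

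Tph1, the tryptophan hydroxylase of peripheral tissues and the rate-limiting enzyme of serotonin synthesis, lies on chromosome 7 from 46644641 to 46672537. Its log2 intensities were 6.94, 7.01, 6.12, 7.15 and 6.94 in the 39-week CRD group, against 6.39, 7.06, 7.18, 6.0 and 5.76 in the 39-week HFD group. They were 5.62, 7.34, 5.67, 5.85 and 5.84 in the 18-week CRD group, against 6.40, 5.65, 6.21, 6.92 and 7.67 in the 18-week HFD group. The high value of the 18-week CRD group was its only set A array, and over all groups Tph1 was 5.62 to 5.85 in set B, 6.0 to 6.12 in set C and 6.21 to 7.67 in set A, without overlap between the sets.

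For CRD against HFD the Tph1 change was 0.35 ± 0.38 at 39 weeks (SE, adjusted p = 0.676, and 0.09 in the blocked fit) and -0.51 ± 0.38 at 18 weeks (SE, adjusted p = 0.311). The sign at 18 weeks turned in the blocked fit, to 0.27 (adjusted p = 0.625). Set by set, CRD minus HFD was 0.13 (A) and 0.11 (C) at 39 weeks, and 0.54 (A) and 0.09 (B) at 18 weeks. The 95% interval in the blocked fit reached from -0.37 to 0.56 at 39 weeks and from -0.27 to 0.80 at 18 weeks.

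After CRD, Tph1 was 0.77 ± 0.38 higher at 39 than at 18 weeks (SE, adjusted p = 0.146). Without replicate 2 of the 18-week CRD group, its set A array, the difference was 1.09 (adjusted p = 0.0272), and in the blocked fit it was -0.08 (adjusted p = 1). Without the same array Ghr was likewise called between the ages after CRD (-0.94, adjusted p = 0.0292, against -0.71, adjusted p = 0.129, with all arrays), and its sign turned in the blocked fit (0.08).

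Mast cells also use Tph1, and of 8 mast cell markers Cpa3 and Fcer1a lay between 0.55 and 2.27 on every array, near the lowest log2 value of the table, 0.55. The others lay higher, with group means of 10.55 to 11.89 for Tpsb2, 7.84 to 8.77 for Cma1 and 7.18 to 8.07 for Mcpt4. Group means of Kit, Hdc and Ms4a2 lay between 5.44 and 7.08. Of the 6 mast cell markers above the level limit, 0 rose and 1 fell after CRD at each age. Among all genes 3.5% rose and 4.84% fell at 39 weeks, and 17% rose and 7.89% fell at 18 weeks. The summed intensity of the list was 2636 to 7089 in the 39-week CRD group, against 2440 to 7393 in the 39-week HFD group, and 1504 to 5704 in the 18-week CRD group, against 1550 to 10340 in the 18-week HFD group. Their part in the Tph1 values was not tested.

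Tph2, the tryptophan hydroxylase of serotonergic neurons, lies on chromosome 10 from 115078641 to 115185022. It averaged 6.73 ± 0.64 in the 39-week CRD group and 6.33 ± 0.80 in the 39-week HFD group, and 6.13 ± 0.38 in the 18-week CRD group and 6.27 ± 0.69 in the 18-week HFD group (SD, n = 5 each). Single arrays ranged from 5.22 to 7.59, with complete overlap between diets. The changes were 0.40 ± 0.38 at 39 weeks (SE, adjusted p = 0.636) and -0.14 ± 0.38 at 18 weeks (SE, adjusted p = 0.789, and 0.33 in the blocked fit, adjusted p = 0.612).

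Ddc, the aromatic amino acid decarboxylase that completes serotonin and also makes dopamine, lies on chromosome 11 from 11814101 to 11898144. Its probe ranked at the 99.5th percentile of all genes by mean intensity. It gave 13.57, 13.74, 14.05, 12.95 and 12.92 in the 39-week CRD group, against 13.88, 13.12, 13.25, 14.14 and 14.26 in the 39-week HFD group. It gave 14.29, 13.45, 14.62, 13.90 and 14.45 in the 18-week CRD group, against 14.09, 14.38, 13.62, 12.40 and 11.74 in the 18-week HFD group. The 2 lowest values of all, in the 18-week HFD group, set its spread of 1.13 (SD), the widest of the 4 groups.

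Ddc was 0.90 ± 0.41 higher after CRD at 18 weeks (SE, unadjusted p = 0.0422, adjusted p = 0.111) and differed by -0.29 ± 0.41 at 39 weeks (SE, adjusted p = 0.763). Without replicate 2 of the 18-week HFD group, its set B array, the 18-week difference was 1.18 (adjusted p = 0.0235), and in the blocked fit it was 0.27 (adjusted p = 0.777). Set A alone gave 0.49 and set B alone -0.07. The difference between the CRD effects at the 2 ages was -1.18 ± 0.58 (SE, adjusted p = 0.222), and -0.34 in the blocked fit (adjusted p = 1).

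Htr2b, a Gq-coupled receptor reported in mouse pregnancy to promote beta cell division, lies on chromosome 1 from 86097546 to 86116231. Htr1d, a Gi-coupled receptor, lies on chromosome 4 from 136423522 to 136444405. Both lay below the level limit and were left out of the main tests. In the fit without that limit neither was called in the 5 comparisons, and the smallest adjusted p was 0.148, for Htr2b between the ages after CRD (1.49 ± 0.71, SE, unadjusted p = 0.0487). Htr2b ranged from 3.84 to 5.04 in the 39-week CRD group, against 3.22 to 5.24 in the 39-week HFD group, and from 0.86 to 4.47 in the 18-week CRD group, against 0.73 to 4.65 in the 18-week HFD group. Htr1d lay between 0.83 and 3.50 on all 20 arrays, below the median of all probes, 5.185. The files give no detection call, so whether either probe was above background is unknown.

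Men1, whose protein scaffolds histone H3 methylation at the genes of cyclin-dependent kinase inhibitors, lies on chromosome 19 from 6334979 to 6340894. It gave 10.23, 10.29, 10.20, 10.01 and 10.32 in the 39-week CRD group, against 9.80, 9.96, 10.23, 9.87 and 8.95 in the 39-week HFD group. It gave 9.64, 10.29, 9.68, 9.67 and 9.64 in the 18-week CRD group, against 9.90, 9.17, 9.82, 10.69 and 10.12 in the 18-week HFD group. At 39 weeks 4 of 5 HFD arrays lay below every CRD array, and the exception, 10.23, fell within the CRD range.

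Men1 differed for CRD against HFD by 0.45 ± 0.25 at 39 weeks (SE, adjusted p = 0.328) and by -0.16 ± 0.25 at 18 weeks (SE, adjusted p = 0.641). In the blocked fit the values were 0.27 (adjusted p = 0.279) and 0.37 (adjusted p = 0.223), so the sign at 18 weeks turned. The gene lay at 8.95 to 9.68 on the set B arrays and at 9.80 to 10.69 on the set A arrays.

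**Figure D3:**
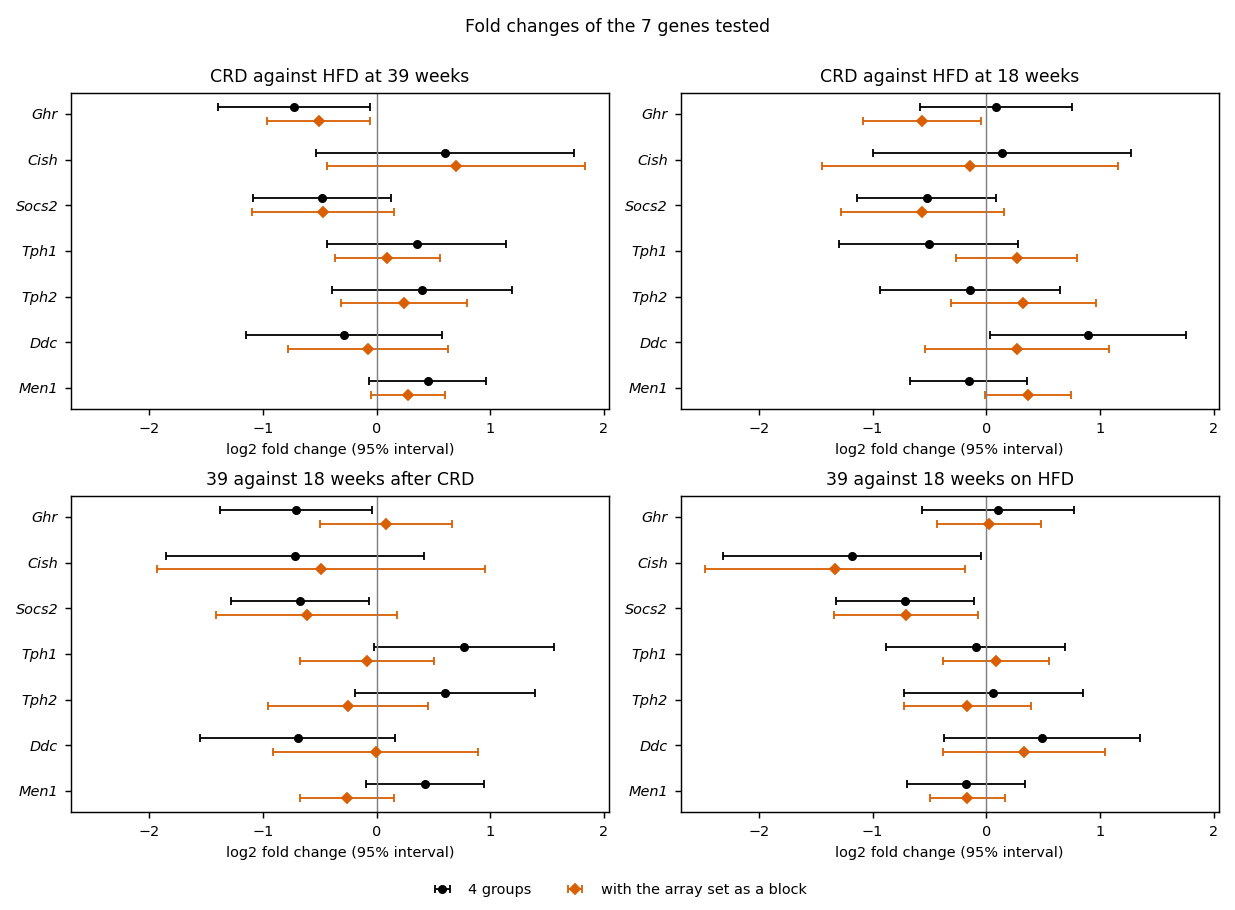
Log2 fold changes of the 7 tested genes with 95% intervals in the CRD comparisons at 39 and 18 weeks and in the age comparisons after CRD and on HFD, from the fit of the 4 groups (black) and the blocked fit with a term for the array set (orange). At 18 weeks the sign of Ghr, Cish, Tph1, Tph2 and Men1 differs between the fits.

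Some genes of a wider signalling list did pass the test at 39 weeks. Of 21 tested genes of a JAK2-STAT5 signalling list, 0 rose and 4 fell after CRD at 39 weeks, where 4.84% of all genes fell, and the list's median was -0.49 beside 0.02 for all genes. The 4 were Stat5b, Stat5a, Jak1 and Pim3. Jak2 was not among them, with means of 6.48 after CRD and 6.31 on HFD at 39 weeks. At 18 weeks 0 of 21 were called by limma, where 24.9% of all genes were called, with 3 of 21 at an unadjusted p under 0.05, against 40.4% of all genes, and the median was -0.07 beside 0.04. In the blocked fit 4 genes fell at 18 weeks (Jak1, Stat5b, Socs4 and Pim3), where 5.97% of all genes fell, and 5 at 39 weeks, where 7.79% fell, the additional one being Prl, which encodes prolactin.

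Stat5b, the STAT5 form most tied to growth hormone in mouse liver, gave 6.90, 6.93, 6.99, 6.60 and 6.91 in the 39-week CRD group, against 7.79, 7.48, 7.52, 7.93 and 8.20 in the 39-week HFD group. The groups did not overlap. It fell by 0.92 ± 0.21 on the log2 scale (SE, adjusted p = 0.00896), in all 20 fits leaving out 1 array. At 18 weeks it averaged 7.40 ± 0.33 after CRD and 7.70 ± 0.45 on HFD (SD, n = 5 each, adjusted p = 0.287, and 0.0146 in the blocked fit).

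Stat5a, first known as the mammary gland factor of prolactin, averaged 5.65 ± 0.23 in the 39-week CRD group and 6.61 ± 0.27 in the 39-week HFD group (SD, n = 5 each). It fell by 0.96 ± 0.27 (SE, adjusted p = 0.0323), and the call held in 13 of 20 fits leaving out 1 array. Jak1, a kinase of other cytokine receptors, fell by 0.82 ± 0.24 (SE, adjusted p = 0.04, held in 11 of 20 such fits). Pim3, a serine/threonine kinase induced by STATs, fell by 1.40 ± 0.42 (SE, adjusted p = 0.0425, held in 10 of 20). In each of these 3 genes leaving out HFD replicate 1, 4 or 5 or CRD replicate 2 or 5 at 39 weeks was among the fits that lost the call. Each fell in the blocked fit (adjusted p = 0.0199, 0.0137 and 0.00787 in the order given). With the replicate number as a block all 3 calls were lost (adjusted p = 0.0651, 0.0895 and 0.096). Without the filter on low values those of Jak1 and Pim3 were lost (adjusted p = 0.0529 and 0.0635). Stat5b kept its call in both fits (adjusted p = 0.0302 and 0.0117).

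Markers of several cell types moved in the same comparison. Of 7 tested beta cell markers 0 rose and 2 fell after CRD at 39 weeks, where 3.5% of all genes rose and 4.84% fell. At 18 weeks 0 rose and 5 fell, where 17% of all genes rose and 7.89% fell. In the blocked fit 2 and 3 of them fell in the same order, against 7.79% and 5.97% of all genes. At 39 weeks 1 of 3 tested delta cell markers fell, as did 1 of 3 tested stellate cell and fibroblast markers, against 4.84% of all genes. In the PP, duct, macrophage, endothelial and Schwann cell lists 0 were called at 39 weeks, where 8.34% of all genes were called. Of 6 tested acinar markers 2 fell after CRD at 39 weeks, where 4.84% of all genes fell, and the list's summed intensity was 6569 to 37240 in the CRD group, against 36230 to 65130 in the HFD group. The summed intensity of 3 alpha cell markers was 15470 to 30500 after CRD, against 31240 to 52620 on HFD, and 1 of the 3, Gcg, fell. That of 4 adipocyte markers was 237.8 to 310.0 after CRD, against 340.5 to 516.1 on HFD, and 1 of the 2 tested, Fabp4, fell. Fabp4 averaged 7.34 after CRD and 8.27 on HFD. Plin1 and Lep averaged higher after CRD (5.98 against 5.74 and 5.26 against 4.67). Adipoq, at 0.85 against 1.01, lay near the lowest value of the table. The alpha cell and adipocyte sums did not overlap between the diets at 39 weeks, and the acinar sums overlapped slightly. At 18 weeks 4 of the 6 acinar markers rose, where 17% of all genes rose, with sums of 4767 to 36880 after CRD, against 962.9 to 35240 on HFD. The part of these cell types in the values of the signalling, serotonin, menin and lactogen lists was not tested. Within set A, with 4 CRD and 3 HFD arrays, the 39-week differences were -0.76 for Stat5b, -0.83 for Stat5a, -0.62 for Jak1 and -1.03 for Pim3. These are effect sizes only and carry no call.

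**Figure D4:**
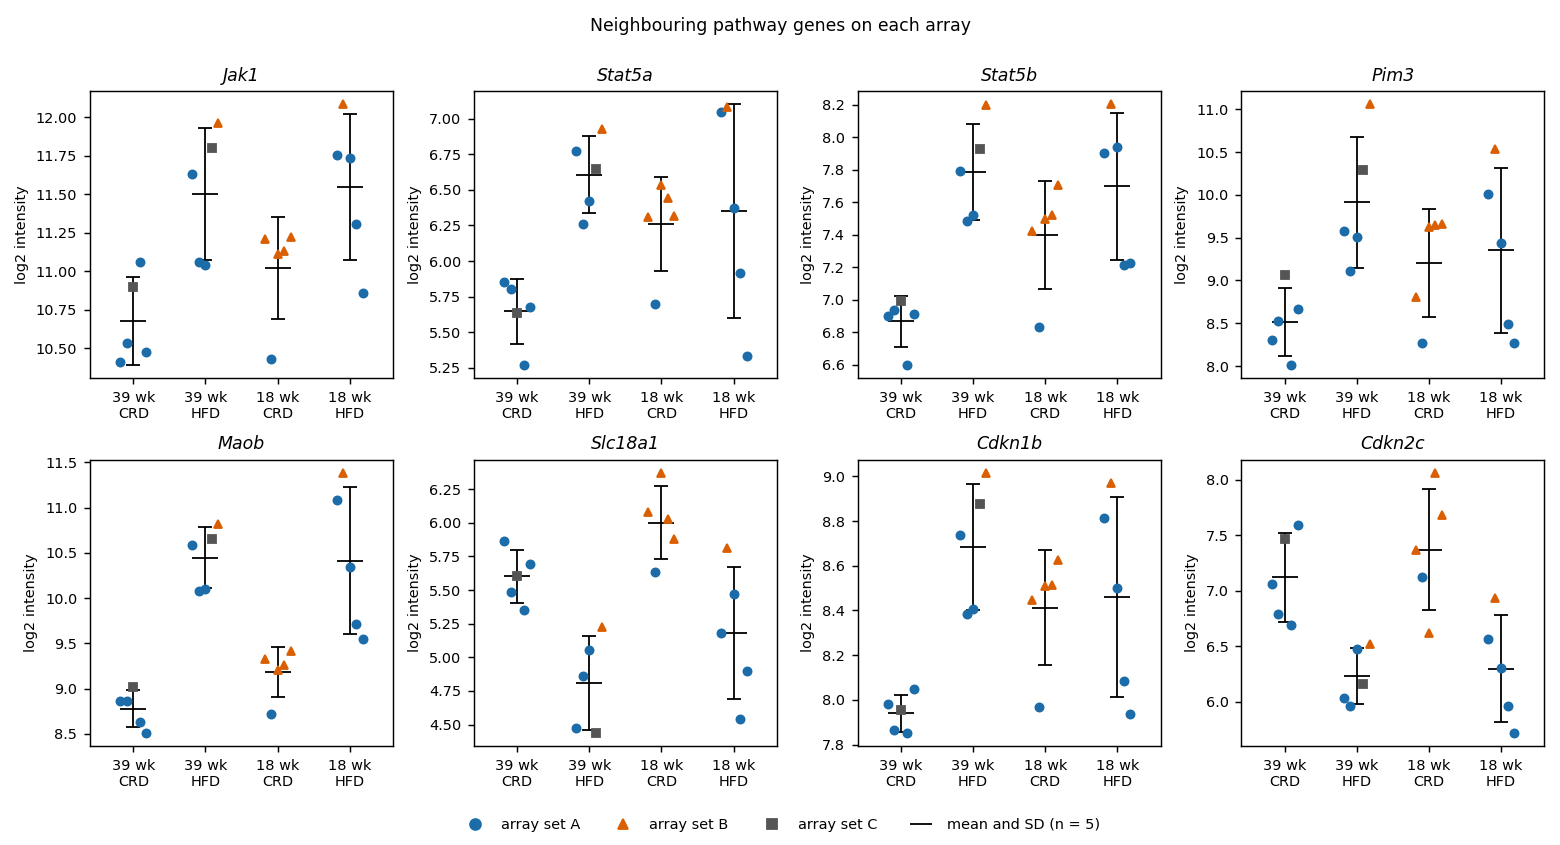
Log2 intensity of 8 genes of the signalling, serotonin and menin lists on each array, by group, with the mean and SD (n = 5). At 39 weeks the CRD and HFD arrays do not overlap except for Jak1, which reaches 11.06 in the CRD group, above the lowest HFD value of 11.04.

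Of 15 tested genes of a serotonin handling list, 1 rose and 2 fell after CRD at 39 weeks, and 2 rose and 2 fell at 18 weeks. The list also holds Th and Dbh, which serve catecholamine rather than serotonin synthesis, and Th was among those that fell at 18 weeks. Among all genes 3.5% rose and 4.84% fell at 39 weeks, and 17% rose and 7.89% fell at 18 weeks. The list's median was -0.15 at 39 weeks and -0.26 at 18 weeks. Maob, which encodes monoamine oxidase B, and Slc18a1, which encodes the vesicular monoamine transporter 1, were called at both ages.

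Maob gave 8.86, 8.86, 9.02, 8.63 and 8.50 in the 39-week CRD group, against 10.59, 10.08, 10.10, 10.65 and 10.82 in the 39-week HFD group. It gave 9.32, 8.72, 9.21, 9.26 and 9.42 in the 18-week CRD group, against 11.09, 11.39, 10.34, 9.71 and 9.55 in the 18-week HFD group. All 10 CRD arrays lay below all 10 HFD arrays. It fell by 1.67 ± 0.29 at 39 weeks (SE, adjusted p = 0.000675) and by 1.23 ± 0.29 at 18 weeks (SE, adjusted p = 0.00457), and within the sets the difference ranged from -2.08 to -1.46.

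Slc18a1 rose after CRD by 0.79 ± 0.22 at 39 weeks (SE, adjusted p = 0.0308, held in 14 of 20 fits leaving out 1 array and lost without HFD replicate 1 or 4 or CRD replicate 1, 2, 3 or 5) and by 0.82 ± 0.22 at 18 weeks (SE, adjusted p = 0.0122), of which the 18-week call was lost in the blocked fit (0.48, adjusted p = 0.152). Pts, which encodes an enzyme of tetrahydrobiopterin, the cofactor of the hydroxylases, fell by 1.14 ± 0.34 at 39 weeks (SE, adjusted p = 0.0375, held in 13 of 20 and lost without HFD replicate 1, 4 or 5 or CRD replicate 1, 2, 4 or 5). Maoa, the gene of monoamine oxidase A, rose by 0.70 ± 0.24 at 18 weeks (SE, adjusted p = 0.0401) and Th, the gene of tyrosine hydroxylase, fell by 0.62 ± 0.21 (SE, adjusted p = 0.0368). Both calls were lost in the blocked fit (adjusted p = 0.485 for Maoa and 0.293 for Th).

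Among 8 tested serotonin receptor genes other than the pair above, 1 fell at 39 weeks, where 4.84% of all genes fell, and 0 were called at 18 weeks by limma, where 24.9% of all genes were. At 18 weeks 2 of 8 had an unadjusted p under 0.05, against 40.4% of all genes. The gene that fell was Htr6, a Gs-coupled receptor known mainly from brain. It averaged 6.47 ± 0.17 in the 39-week CRD group and 7.14 ± 0.26 in the 39-week HFD group (SD, n = 5 each), a fall of 0.66 ± 0.15 (SE, adjusted p = 0.00814).

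Of 9 tested genes of the menin complex and its targets, 1 rose and 1 fell after CRD at 39 weeks (3.5% and 4.84% of all genes), and 2 rose and 1 fell at 18 weeks (17% and 7.89% of all genes). The 2 cyclin-dependent kinase inhibitor genes that menin maintains in mouse islets went opposite ways at 39 weeks. Cdkn1b, which encodes p27, averaged 7.94 ± 0.08 after CRD and 8.68 ± 0.28 on HFD (SD, n = 5 each) and fell by 0.74 ± 0.20 (SE, adjusted p = 0.0234, held in 16 of 20 fits leaving out 1 array and lost without HFD replicate 1, 4 or 5 or CRD replicate 2). Cdkn2c, which encodes p18, rose by 0.89 ± 0.27 at 39 weeks (SE, adjusted p = 0.0433, held in 8 of 20) and by 1.08 ± 0.27 at 18 weeks (SE, adjusted p = 0.00721, and 0.0852 in the blocked fit).

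Psip1, whose protein tethers menin to chromatin, fell by 1.00 ± 0.29 at 18 weeks (SE, adjusted p = 0.0173, lost without 18-week HFD replicate 3 or 4), and by 1.48 in the blocked fit (adjusted p = 0.000766). Dpy30, a core subunit of the methyltransferase complex, rose by 0.93 ± 0.31 at 18 weeks (SE, adjusted p = 0.0333, lost in the blocked fit at 0.524).

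Of 7 tested genes reported as lactogen targets in islets, 1 rose and 1 fell at 39 weeks (3.5% and 4.84% of all genes), and 2 rose and 1 fell at 18 weeks (17% and 7.89% of all genes). Ccnd2, which encodes cyclin D2, the main D-type cyclin of mouse beta cells, averaged 12.26 ± 0.30 after CRD and 13.59 ± 0.49 on HFD at 39 weeks, and 12.80 ± 0.35 after CRD and 13.87 ± 0.57 on HFD at 18 weeks (SD, n = 5 each). It fell by 1.33 ± 0.27 at 39 weeks (SE, adjusted p = 0.00318) and by 1.07 ± 0.27 at 18 weeks (SE, adjusted p = 0.00767), in all 20 fits leaving out 1 array at each age. Ccnd3, the gene of cyclin D3, rose by 0.83 ± 0.24 at 18 weeks (SE, adjusted p = 0.0173, lost in the blocked fit at 0.23).

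Birc5, which encodes survivin and is also a gene of dividing cells in general, averaged 7.81 ± 0.69 after CRD and 1.77 ± 0.91 on HFD at 39 weeks, and 8.29 ± 0.81 after CRD and 1.99 ± 1.31 on HFD at 18 weeks (SD, n = 5 each). It rose at 39 weeks (adjusted p = 3.67e-07) and at 18 weeks (adjusted p = 1.42e-07), and the lowest CRD value was 7.01 at 39 weeks and 7.34 at 18 weeks, against a highest HFD value of 2.93 and 3.53. Its HFD values reached 0.67 and 0.62, next to the lowest value of the table, 0.55, so the size of the log2 change has no fixed value. It was 6.04 and 6.30 on the deposited values, and 3.61 and 3.98 with an offset of 16 added to every intensity. The division marker Mki67 moved beside it, with means of 9.60 ± 0.75 after CRD and 6.03 ± 0.42 on HFD at 39 weeks, and 10.04 ± 0.85 after CRD and 6.17 ± 0.47 on HFD at 18 weeks (SD, n = 5 each).

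In the age comparisons and in the difference between the CRD effects, 0 genes of the 5 lists were called by limma. Those at an unadjusted p under 0.05 between the ages on HFD were 3 of 21 in the signalling list, 0 of 15 and 0 of 8 in the serotonin lists, 1 of 9 in the menin list and 2 of 7 in the lactogen list, against 6.6% of all genes. Between the ages after CRD they were 7 of 21, 4 of 15, 2 of 8, 5 of 9 and 3 of 7 in the same order, against 35.6% of all genes. For the difference between the CRD effects they were 8 of 21, 2 of 15, 3 of 8, 3 of 9 and 1 of 7, against 22.1% of all genes. In the blocked fit Psip1 fell between the ages on HFD (-1.11, adjusted p = 0.0298).

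After each array set's mean was subtracted, the genes most like Tph1 over the 20 arrays by Pearson's r were Slitrk2 (0.953), Syt8 (0.944), Stra6 (0.941), Acr (0.939) and Tmem175 (0.934). Those most like Socs2 were Tfb2m (0.831), Stxbp5 (0.801), Styx (0.787), Jun (0.786) and Snx9 (0.785). These are the highest of 18310 values each and are a description only.

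Within the 12 arrays of set A, 4 relations between genes of the set were computed. Tph1 and Ddc ran opposite ways (Pearson r = -0.694, permutation p = 0.00972, adjusted p = 0.0389, and Spearman rho = -0.518, permutation p = 0.0895, adjusted p = 0.306), and r was -0.520 without the 2 arrays farthest from the Tph1 median. Cish and Socs2, the pair of STAT5 feedback genes, had r = 0.585 (permutation p = 0.0432, adjusted p = 0.0863) and rho = 0.441 (permutation p = 0.153, adjusted p = 0.306), and r = 0.695 without the 2 farthest arrays. Tph1 and Tph2 had r = -0.460 (permutation p = 0.132, adjusted p = 0.176) and rho = -0.308. Ghr and Socs2 had r = 0.355 (permutation p = 0.258, adjusted p = 0.258) and rho = 0.189, and r turned to -0.258 without the 2 farthest arrays. The 12 arrays mix the 4 groups, and the permutations ran across the groups, so differences between groups enter both the correlations and their p-values.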

How the data were processed

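Total RNA of islets from 20 mice was hybridised to 1-colour Agilent arrays with Cy3 and, per the submitters' processing notes, scanned into Agilent Feature Extraction 11. The deposited table holds 1 linear intensity per probe and array; all 20 columns hold the same sorted values (median 36.39), so they had been quantile normalized before deposit, while their background correction stays unknown. Precision is limited by the number of arrays. Of 59448 probes, 30010 carried a gene symbol, all matched to RefSeq (GRCm38.p6).

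Log2 intensities of the brightest probe per gene, without the lowest 30% (mean log2 under 4.828), were fitted with limma 3.58.1 (R 4.3.3; lmFit, then eBayes, 4 groups, Benjamini-Hochberg over 18311 genes). Named genes were the 10 chosen genes, up to 4 called genes per list and comparison (or the 2 with the smallest p), the islet hormones and the 5 genes most like Tph1 and Socs2. The likeness rule also named Prlr, which has no probe. The genes and lists were chosen with earlier results of these data known. Alternatives were no filter, an offset of 16, the mean of all probes, the array set or replicate number as a block, set A alone, an intensity trend with robust moderation, and leaving out each array. The script was tested on simulated data. The labels number replicates 1 to 5 in each group. The sample titles also carry a second number, and some of its values recur in other groups. Whether that number pairs the samples was not tested.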

Additional observations from a re-analysis of the deposited data

Results flagged for a closer look

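In 8 of 36 groups of 5 arrays examined for the 9 genes, 1 array stood apart from the other 4 by Dixon's gap test, where chance alone would give about 1 in 20 groups. Replicate 2 of the 18-week CRD group stood apart for 4 genes, with 8.99 for Ghr, 7.34 for Tph1, 3.50 for Htr1d and 10.29 for Men1, and it is the only set A array of its group. Replicate 4 of the 39-week CRD group was low for Ghr at 8.59. Replicate 3 of the 39-week CRD group, its only set C array, was low for Tph1 at 6.12. Replicate 3 of the 18-week CRD group was low for Tph2 at 5.44. Replicate 2 of the 18-week HFD group, its only set B array, was low for Htr2b at 0.73. The part of the array sets in these values was not tested further.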

How the results depend on the processing

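In every alternative that kept all 20 arrays, limma called 0 of the 7 genes in all 5 comparisons. Leaving out 1 array gave 0 to 1 called genes for CRD against HFD at 18 weeks, 0 to 0 at 39 weeks, 0 to 0 for age on HFD, 0 to 2 for age after CRD and 0 to 0 for the difference between the CRD effects.

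With the array set as a block these log2 changes turned sign. For CRD against HFD at 18 weeks they became -0.57 (Ghr), -0.14 (Cish), 0.27 (Tph1), 0.33 (Tph2) and 0.37 (Men1). For age on HFD they became 0.088 (Tph1) and -0.17 (Tph2). For age after CRD they became 0.082 (Ghr), -0.083 (Tph1), -0.25 (Tph2) and -0.26 (Men1). For the difference between the CRD effects they became 0.058 (Ghr), -0.17 (Tph1), -0.086 (Tph2) and -0.091 (Men1). In set A alone, with 1 array in the 18-week CRD group that is assumed to vary like the others, they became -0.63 (Ghr), 0.54 (Tph1) and 0.16 (Men1) for CRD at 18 weeks, 0.076 (Tph1) and -0.28 (Tph2) for age on HFD, 0.17 (Ghr), -0.33 (Tph1) and -0.075 (Men1) for age after CRD, and 0.088 (Ghr), -0.51 (Socs2) and -0.40 (Tph1) for the difference between the CRD effects. With the mean of all probes the last difference for Socs2 was -0.0076. The cause was not tested.

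Leaving out 1 array turned a sign within these ranges: for CRD at 18 weeks -0.14 to 0.32 (Ghr), -0.25 to 0.44 (Cish), -0.40 to 0.028 (Tph2) and -0.35 to 0.030 (Men1), for age on HFD -0.12 to 0.34 (Ghr), -0.32 to 0.18 (Tph1), -0.22 to 0.29 (Tph2) and -0.37 to 0.023 (Men1), and for the difference between the CRD effects -0.20 to 0.28 (Socs2).

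Over all genes, 4565 were called for CRD at 18 weeks (3120 rose, 1445 fell), 2355 with the array set as a block (1262 rose, 1093 fell), 180 in set A alone and 2614 to 8400 without 1 array. At 39 weeks the counts were 1528, then 2799 with the array set as a block, 1004 with a replicate block, 647 in set A alone (427 rose, 220 fell) and 1004 to 1884 without 1 array. For age on HFD they were 17, then 0 without the filter, 167 with the array set as a block, 0 with a replicate block, 0 in set A alone and 0 to 283 without 1 array. For age after CRD they were 5, then 160 without the filter, 0 with the array set as a block, 2 with a replicate block, 0 in set A alone and 3 to 6466 without 1 array, and for the difference between the CRD effects 0 and 0 to 3876. The replicate block called 0 of the 7 genes in every comparison. Among the named list genes it lost the 39-week calls of Stat5a, Jak1, Pim3, Pts, Cdkn1b and Cdkn2c. At 18 weeks it lost those of Maoa, Th and Dpy30. Arrays with the same replicate number in different groups correlated in their deviations at -0.85 to 0.862 (median -0.0717). Those with different replicate numbers did so at -0.87 to 0.878 (median 0.0104). Both spreads were so wide that the check could neither show nor exclude a pairing by replicate number. The second number in the sample titles recurs under other replicate numbers, so the replicate block does not follow it, and a pairing by it was not tested.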
